A study of Mus musculus with 4 samples.

Results

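The genes described here encode the contractile actin apparatus and the adhesions that anchor it, together with the transcription factors that control them. They are 38 genes chosen by name among the 18193 genes that have a probe set with a single gene symbol on the array. The rule itself uses no measured value, but the list was drawn up with earlier results of these data known. In the platform annotation they had 101 probe sets, besides 3 control probe sets of Actb, and 2 of them stood there under their current symbols, Mrtfa for Mkl1 and Mrtfb for Mkl2. RNA came from 2 PA1 -/- and 2 PA1 +/+ samples of immortalised mouse embryonic fibroblasts (MEFs), and each sample was hybridised to 1 Affymetrix array. Both groups carried the loxP-flanked PA1 allele (PA1loxP/loxP) and were selected in 2 rounds with puromycin. The PA1 -/- cells, called knockout below, had received a retrovirus with Cre recombinase, an enzyme that cuts out DNA between loxP sites. The PA1 +/+ cells, called wild type, had received the vector alone, so loss of PA1 and exposure to Cre cannot be told apart. The study asked which genes PA1, a protein associated with histone H3 lysine-4 methyltransferase complexes, regulates.

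Fibroblasts pull on their surroundings through stress fibres, bundles of actin filaments and non-muscle myosin II that end in focal adhesions. Free actin monomers hold the coactivators MRTF-A and MRTF-B in the cytoplasm, and when monomers are used up the coactivators enter the nucleus and act with serum response factor (SRF) on CArG boxes near many cytoskeletal genes. YAP, with its DNA-binding partner TEAD1, responds to tension and cell spreading and acts on an overlapping set of genes, and fibroblasts that switch on smooth-muscle-type members of this programme are known as myofibroblasts.

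Promoter windows were searched for the binding motifs of these regulators, and 5 are shown: those of Flnc and Mylk, the members with the largest differences in each direction, and of Srf, Myl9 and Actg1, which hold CArG boxes and encode a regulator, a motor subunit and an actin. The windows run from 250 bases before to 50 bases after an annotated start, from RefSeq on build GRCm38.p6, and 41 windows of 33 member genes were matched by symbol. The other 5 members were Actb, Actg2, Pxn, Tagln and Tead1. Capitals mark each CArG box in Srf, Myl9 and Actg1, and in Flnc and Mylk each CATTCC, the core of the TEAD binding motif. The Flnc window is the first of 2 that overlap and share their CATTCC.
Flnc, chr6:29432903-29433202, plus strand: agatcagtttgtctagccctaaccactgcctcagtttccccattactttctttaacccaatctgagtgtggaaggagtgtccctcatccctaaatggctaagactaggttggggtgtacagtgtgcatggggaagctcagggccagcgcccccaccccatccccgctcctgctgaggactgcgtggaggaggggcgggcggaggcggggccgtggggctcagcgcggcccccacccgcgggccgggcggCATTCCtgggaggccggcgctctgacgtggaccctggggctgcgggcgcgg
Mylk, chr16:34784700-34784999, plus strand: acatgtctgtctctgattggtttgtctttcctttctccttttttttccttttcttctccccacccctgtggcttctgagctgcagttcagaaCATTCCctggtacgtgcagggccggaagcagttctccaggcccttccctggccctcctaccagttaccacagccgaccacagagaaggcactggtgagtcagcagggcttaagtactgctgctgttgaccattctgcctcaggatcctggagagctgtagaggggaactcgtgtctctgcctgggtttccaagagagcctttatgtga
Srf, chr17:46556113-46556412, minus strand: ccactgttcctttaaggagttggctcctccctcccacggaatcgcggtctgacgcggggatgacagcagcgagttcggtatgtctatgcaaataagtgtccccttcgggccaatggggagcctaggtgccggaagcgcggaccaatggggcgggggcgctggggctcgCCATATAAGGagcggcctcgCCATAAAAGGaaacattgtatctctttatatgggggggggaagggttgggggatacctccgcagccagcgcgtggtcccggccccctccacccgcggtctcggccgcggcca
Myl9, chr2:156775214-156775513, plus strand: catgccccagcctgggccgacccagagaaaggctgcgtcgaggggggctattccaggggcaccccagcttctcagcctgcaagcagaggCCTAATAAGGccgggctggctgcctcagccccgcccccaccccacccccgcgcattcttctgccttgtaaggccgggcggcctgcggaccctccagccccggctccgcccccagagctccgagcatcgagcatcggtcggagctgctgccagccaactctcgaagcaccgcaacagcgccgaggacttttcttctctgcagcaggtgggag
Actg1, chr11:120348446-120348745, minus strand: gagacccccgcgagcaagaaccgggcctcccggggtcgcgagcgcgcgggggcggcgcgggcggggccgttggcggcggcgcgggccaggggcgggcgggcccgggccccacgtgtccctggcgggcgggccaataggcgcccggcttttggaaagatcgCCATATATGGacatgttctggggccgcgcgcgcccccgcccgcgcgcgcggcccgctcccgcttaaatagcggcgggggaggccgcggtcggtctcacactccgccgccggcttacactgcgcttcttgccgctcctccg
A CArG box with no mismatch stood in the windows of 5 of the 33 member genes (15.2%), Actg1, Cnn2, Myl9, Srf and Vcl, against 1.81% of all 27025 genes with a window. Srf had 2 such boxes, beginning 82 and 62 bases before its start, Actg1 had 1 at 90 bases, Myl9 at 161, Cnn2 at 56 and Vcl at 227. CATTCC, searched on both strands and not overlapping any CArG box found, stood in windows of 15 of the 33 (45.5%), Flnc and Mylk among them, against 16.6% of all genes. A match of letters is a description of the window and not a site of binding.

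The labelled cell type was checked against marker genes. Fibroblast markers were bright, with summed signals over 11 genes of 79376 and 89128 on the knockout arrays and 89063 and 109461 on the wild-type arrays, and of them Lum was below the signal boundary of 62.8 on every array. Those sums rest on a few bright genes such as Vim, Fn1 and Col1a2. Lum was higher in the knockout without overlap, at 31.1 and 28.9 against 21.3 and 19.0. Lower in the knockout without overlap were 4 of the 11, beside 11.3% of all tested genes. Pdgfra read 134 and 210 in knockout and 1515 and 357 in wild-type cells, and Pdgfrb 1571 and 2807 in knockout and 3694 and 3482 in wild-type cells. Dcn read 41.4 and 37.9 in knockout, below the boundary, and 138 and 103 in wild-type cells, and the other of the 4 was Col1a2, at 16542 and 16831 in knockout and 18183 and 20947 in wild-type cells. None of them passed limma, and their part in the results below was not tested. Myh11, the smooth muscle myosin heavy chain, the coactivator gene Myocd and Kcnmb1, 3 of 5 smooth muscle markers, were below that boundary on every array. All 5 summed to 282 and 206 on the knockout arrays and 153 and 216 on the wild-type arrays. The remaining markers of that list were Ldb3 and Synpo2. Ldb3 read 137 and 180 in knockout and 44.0 and 128 in wild-type cells, higher without overlap. Synpo2 read 126 and 7.32 in knockout and 86.4 and 32.8 in wild-type cells, with overlap. Skeletal muscle markers were below the boundary for 5 of 7 genes, Myod1 and Myog included, and summed to 245 and 187 on the knockout arrays and 254 and 118 on the wild-type arrays. Endothelial markers were below it for 4 of 5 genes and summed to 138 and 153 on the knockout arrays and 134 on each wild-type array. Macrophage markers summed to 854 and 888 on the knockout arrays and 821 and 1716 on the wild-type arrays, with Ptprc and Tyrobp below the boundary. Of these genes Cd14 alone read 418 and 539 on the knockout arrays and 425 and 1416 on the wild-type arrays. Cd68 was also lower in the knockout at both numbers, at 173 and 133 against 224 and 165. Csf1r was higher without overlap, at 175 and 147 in knockout and 94.9 and 91.3 in wild-type cells. Adgre1 was higher at both numbers, at 70.5 and 32.7 against 39.2 and 3.19. Epithelial markers summed to 493 and 349 on the knockout arrays and 706 and 307 on the wild-type arrays, with Krt8 and Krt14 below the boundary, and the part of these markers in the results below was not tested. Pagr1a, the gene read here as PA1, had signals of 108 and 113 on the knockout arrays and 1340 and 1389 on the wild-type arrays, so its level separated the groups as labelled. Whether its probe sets lie in the deleted part was not tested.

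Signals are MAS5 values, linear brightness in arbitrary units scaled per array, and they can be compared for 1 probe set between arrays but not between genes. Array medians lay between 63.2 and 66.4. Differences are knockout minus wild type of log2(signal + 9.96), so they understate changes of dim genes, and each gene was read through its brightest probe set by mean over the 4 arrays. Arrays of each genotype are numbered 1 and 2 in the labels, pairs of signals are given in that order, and differences are given between the genotypes within each number as well as over all 4 arrays. Nothing in the labels says that the replicates of a genotype were separate cultures, and p-values here reflect the spread among 4 arrays, part of which may be technical. The fit holds genotype only, so the difference between the arrays numbered 2 and 1 enters each SE and p-value. That difference in knockout correlated at 0.805 with that in wild type across tested probe sets. A fit that includes the number, under which Flnc and Mylk passed, is given in the last section. The number of arrays limits the precision, and 0.333 is the smallest p that an exact 2-sided permutation test of 2 against 2 allows.

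**Figure D1:**
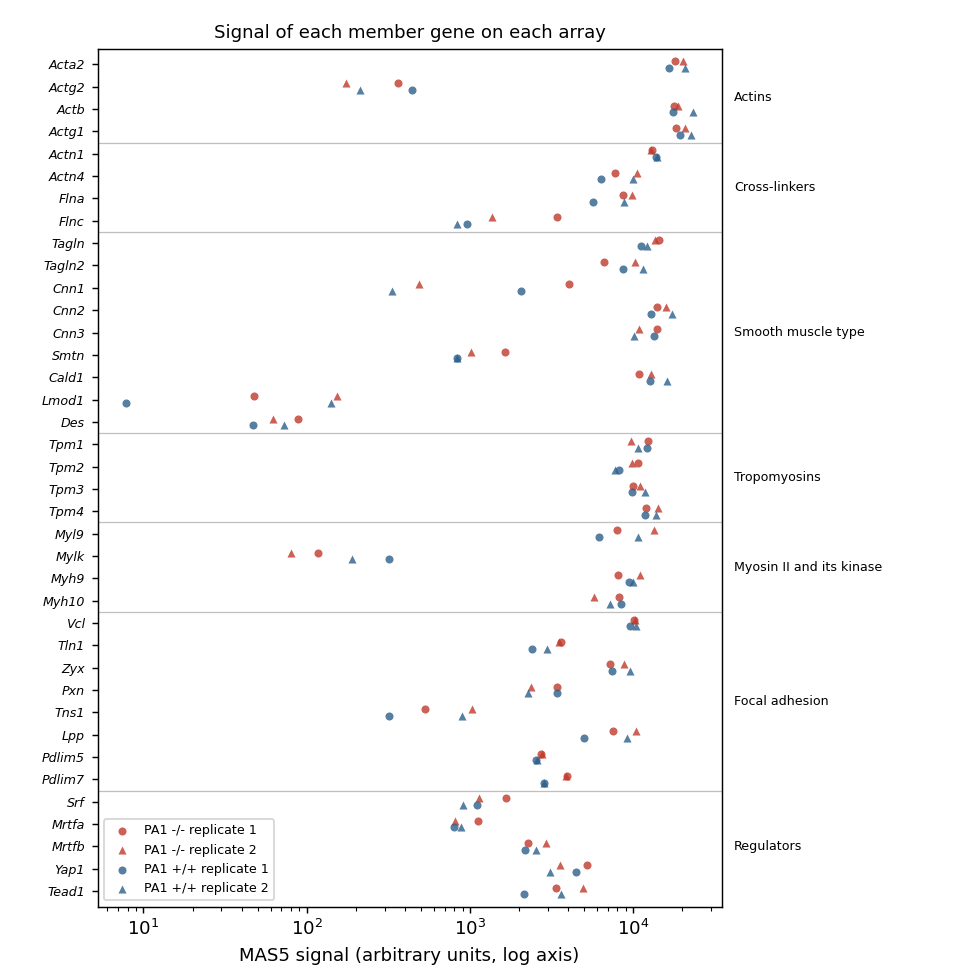
MAS5 signal (log axis, arbitrary units) of the brightest probe set of all 38 genes, grouped by role; red points are the 2 knockout arrays and blue points the 2 wild-type arrays, circles replicate 1 and triangles replicate 2. For Flnc both knockout points (3397 and 1373) lie above both wild-type points (959 and 835), and for Mylk both (118 and 80.6) lie below (319 and 190).

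Most members had small differences between the genotypes, and more of them were higher than lower in the knockout. Of the 37 member genes bright enough to be tested, 25 had a higher mean in the knockout and 12 a lower one, with a median log2 difference of 0.10 (0.12 at number 1 and 0.07 at number 2), beside 0.02 over all 10714 tested genes. The 37 were higher in the knockout at both numbers for 20 genes (54.1%), against 33.9% of all tested genes. They were lower at both numbers for 8 genes (21.6%), against 29.3% of all, and went opposite ways for 9. At least 2-fold lower at both numbers was 1 member, Mylk, against 0.831% of all tested genes, and at least 2-fold higher at both numbers were 0 members, against 0.187%. None of the 37 passed limma over all 22519 tested probe sets at an adjusted p under 0.05, nor did any other probe set (0% called). Pagr1a itself did not pass, although 11.4-fold lower in the knockout by the probe set given above (limma adjusted p = 0.876). Not passing therefore says little about a member. By the same fit 2 members, Flnc and Mylk, had an unadjusted p under 0.05, as had 231 of all tested genes (2.16%). Lmod1 was the 1 member too dim to be tested. In 8 members both knockout arrays were above both wild-type arrays (15% of all tested genes), and in 2 both were below (11.3% of all). The higher 8 were Flnc, Tagln, Smtn, Tpm2, Tln1, Pdlim5, Pdlim7 and Srf, and the lower 2 were Mylk and Actn1. After quantile normalization 29 members were higher and 8 lower, with a median of 0.15 beside 0.016 over all tested genes. When all tested probe sets of a gene were averaged the split was also 29 to 8, with a median of 0.18 beside 0.029. When the wild-type array numbered 1 was left out the split was 19 to 18, in a fit that holds unequal replicate numbers. The member median was then 0.026, close to the 0.024 over all tested genes. Because that fit carries part of the difference between numbers, it cannot show whether the lean upward rests on that array. The comparison at number 2 does not use that array. There 21 of the 37 members were higher, with a median of 0.07 beside -0.00028 over all tested genes. In bulk RNA, fewer cells that express a gene and less of its RNA per cell cannot be told apart.

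**Figure D2:**
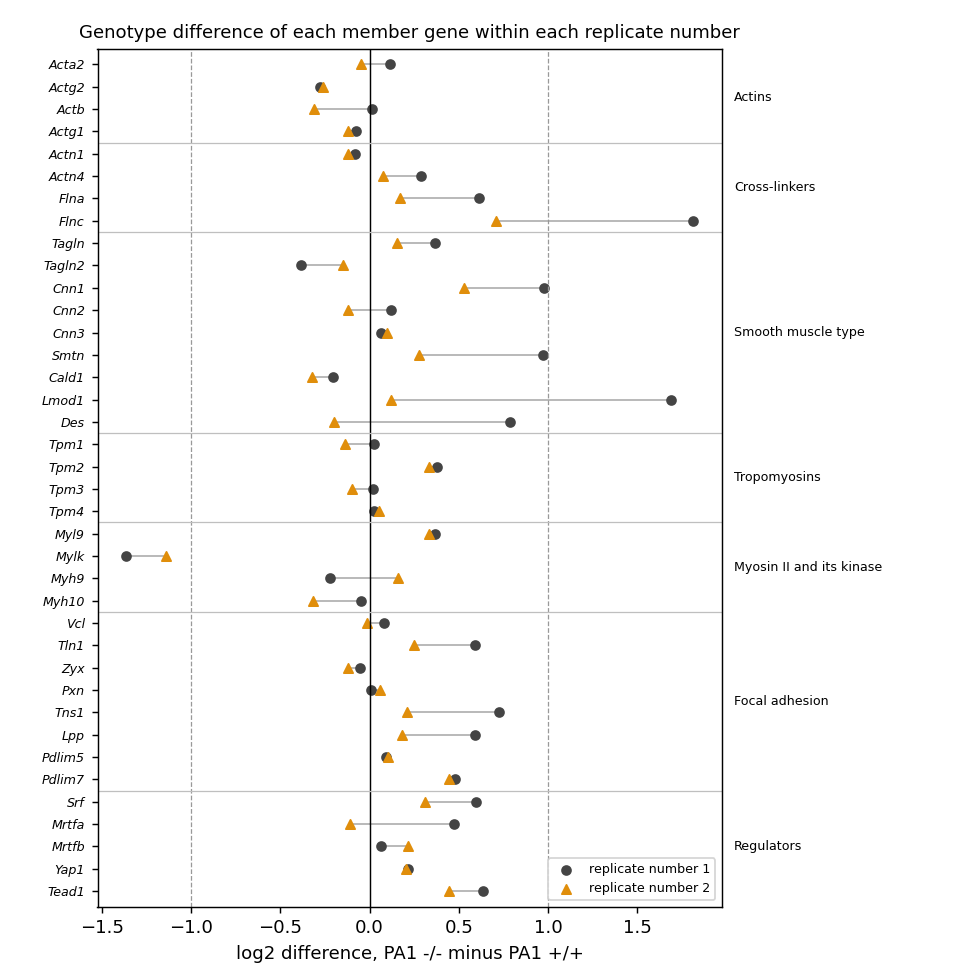
Log2 difference, knockout minus wild type, of each member gene at replicate number 1 (dark circles) and number 2 (orange triangles), joined by a grey line; dashed lines mark 2-fold. Most genes lie within 0.5 of 0, Flnc reaches 1.81 at number 1, and Mylk lies beyond the 2-fold line on the lower side at both numbers.

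The actins, which form the filament itself, had differences smaller than their standard errors in all 4 genes by the brightest probe set. Actg1, cytoplasmic gamma-actin, had signals of 18352 and 20867 in knockout cells and 19330 and 22659 in wild-type cells (log2 difference -0.10, SE 0.145). Actb, cytoplasmic beta-actin, read 17707 and 18760 in knockout and 17520 and 23255 in wild-type cells (-0.15, SE 0.175). For both genes the ranges of the groups overlapped. Acta2, smooth muscle alpha-actin and the usual marker of myofibroblasts, read 17908 and 20147 in knockout cells and 16526 and 20863 in wild-type cells, with the knockout values inside the wild-type range (0.03, SE 0.166). Its 2 dim probe sets read differently: 207 and 158 in knockout against 61.8 and 86.0 in wild-type cells for one, without overlap, and 107 and 127 against 55.9 and 114 for the other, so that the average over its probe sets was 0.57. Actg2, the enteric smooth muscle actin, read 362 and 175 in knockout and 440 and 211 in wild-type cells (-0.27, SE 0.530), lower at each number by about the same amount (-0.28 and -0.26). Of the 4 actins 3 were thus below 0, but after quantile normalization 2 were, Actg1 turning to 0.048. The 3' and 5' control probe sets of Actb gave a ratio of 3' to 5' signal, a common check of RNA integrity, of 1.17 and 1.20 in knockout and 1.19 and 1.09 in wild-type cells.

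Among the proteins that cross-link filaments, filamin C stood apart from the others. Flnc, the filamin best known from muscle, read 3397 and 1373 in knockout cells and 959 and 835 in wild-type cells, a mean of 2385 ± 1431 against 897 ± 87.9 (SD, n = 2 each). Both knockout values lay above both wild-type values, and the 2 knockout arrays differed from each other more than the wild-type arrays did. The log2 difference was 1.26 (SE 0.478, 2.40-fold, limma adjusted p = 0.9998 over all probe sets), made up of 1.81 at number 1 and 0.71 at number 2. A second probe set gave the same order, with 4042 and 1316 in knockout and 820 and 604 in wild-type cells (2.29 at number 1 and 1.11 at number 2). Flna, the ubiquitous filamin A, read 8654 and 9831 in knockout and 5657 and 8737 in wild-type cells (0.39, SE 0.256), with overlap between the groups. Alpha-actinin 4 (Actn4) read 7741 and 10546 in knockout and 6337 and 10019 in wild-type cells (0.18, SE 0.295). Alpha-actinin 1 (Actn1) read 13108 and 12797 in knockout and 13847 and 13926 in wild-type cells, slightly lower without overlap (-0.10, SE 0.125), while its 2 dimmer probe sets were higher without overlap, at 0.48 and 0.60. The direction for Actn1 therefore depends on the probe set.

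The smooth-muscle-type genes include some whose proteins bind along actin filaments and temper their sliding on myosin. Their mean was higher in the knockout for 6 of 8 tested genes, Cnn2 at 0.00 and Des among them, and lower for 2, beside 53.3% higher of all tested genes. At both numbers 4 were higher and 2 lower. Tagln, transgelin or SM22-alpha, read 14303 and 13518 in knockout and 11082 and 12171 in wild-type cells, higher on both knockout arrays (0.26, SE 0.136). Smtn, smoothelin, read 1645 and 1013 in knockout and 832 and 834 in wild-type cells (0.63, SE 0.319), with the 2 wild-type arrays nearly equal and the knockout array numbered 1 well above them. Cnn1, calponin 1, read 4033 and 488 in knockout and 2042 and 335 in wild-type cells (0.75, SE 1.31). It was higher in the knockout at each number, by 0.98 and 0.53, but the arrays numbered 1 were far above those numbered 2 in both genotypes, so the groups overlapped. Cnn2, calponin 2, read 13989 and 15916 in knockout and 12871 and 17290 in wild-type cells (0.00, SE 0.193), and Cnn3 differed by 0.08. Cald1, caldesmon, read 10905 and 12845 in knockout and 12569 and 16057 in wild-type cells (-0.26, SE 0.186), though a dimmer probe set gave 0.43. Tagln2, transgelin 2, differed by -0.27 by its brightest probe set and by 0.35 by another. The muscle intermediate filament gene Des was dim, at 88.5 and 62.0 in knockout and 47.0 and 72.7 in wild-type cells. Lmod1, leiomodin 1, which nucleates filaments in smooth muscle, read 47.3 and 154 in knockout and 7.80 and 141 in wild-type cells and was not tested.

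The tropomyosins, which coil along the filament and set which other proteins can bind it, differed by the brightest probe set by more than 0.1 for Tpm2 and by less for the other 3. Tpm2 read 10660 and 9779 in knockout and 8202 and 7761 in wild-type cells, without overlap and alike at the 2 numbers (0.38 and 0.33; overall 0.36, SE 0.148). A second bright probe set of Tpm2 gave 6043 and 5920.5 in knockout and 4992 and 4846 in wild-type cells. Its other 2 tested probe sets overlapped, at 0.06 and 0.04 with opposite signs at the 2 numbers, and the average over the 4 was 0.18. Tpm1 differed by -0.06, Tpm3 by -0.04 and Tpm4 by 0.04, and after quantile normalization these were 0.041, 0.075 and 0.14. Probe sets of Tpm1 and Tpm3 ranged from -0.57 to -0.04 and from -0.04 to 0.35, and the splice forms they read are not told apart here.

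Within myosin II the kinase was the member that differed most. Mylk, myosin light chain kinase, which switches the motor on by phosphorylating its regulatory light chain, read 118 and 80.6 in knockout cells and 319 and 190 in wild-type cells, a mean of 99.2 ± 26.3 against 254.7 ± 91.5 (SD, n = 2 each). Both knockout values were below both wild-type values, and the difference was -1.37 at number 1 and -1.14 at number 2, with -1.25 overall (SE 0.393, 2.39-fold, limma adjusted p = 0.9998 over all probe sets). A second probe set read 76.3 and 38.1 in knockout against 147 and 78.4 in wild-type cells, also without overlap. Its knockout mean of 57.2 lay below the signal boundary of 62.8, so it entered the test only through its wild-type signal. The remaining probe set, below the boundary, read 12.8 and 33.1 against 32.4 and 9.17. Mylk was among the dimmer probe sets tested, so its fold is understated by the added constant. Myl9, the regulatory light chain that the kinase acts on, was higher in the knockout at each number, at 7924 and 13382 in knockout and 6134 and 10620 in wild-type cells (0.37 and 0.33; overall 0.35, SE 0.381). The heavy chain genes Myh9 (-0.03, SE 0.203) and Myh10 (-0.18, SE 0.230) encode non-muscle myosin IIA and IIB, and 5 probe sets of Myh9 ranged from -0.44 to 0.24. With median centring or quantile normalization Myh9 stood at 0.017 or 0.048.

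**Figure D3:**
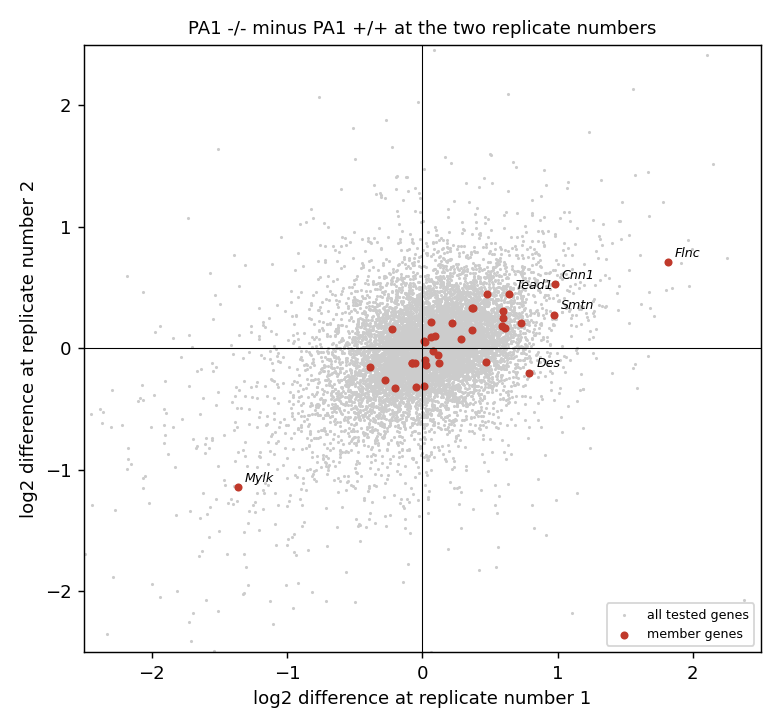
Log2 difference at replicate number 1 (x axis) and number 2 (y axis) for all 10714 tested genes (grey; 42 lie outside the axes) and the 37 tested member genes (red). Members lie mostly in the upper right quadrant, with Flnc at its far end and Mylk in the lower left.

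Focal adhesion genes had a higher mean in the knockout for 7 of 8 and a lower one for 1, as they did after quantile normalization or median centring, beside 53.3% higher of all tested genes. At both numbers 6 were higher and 1 lower. For several of them the size depended on the probe set. Pdlim7, a LIM-domain protein of stress fibres, read 3942 and 3897 in knockout and 2828 and 2858 in wild-type cells (0.46, SE 0.181). By this probe set the 2 arrays of each genotype nearly coincided and the groups did not overlap. Another bright one overlapped, at 2006 and 1206 in knockout and 1802 and 1266 in wild-type cells, and the average over 3 was 0.26. Tln1, talin 1, which couples integrins to actin, read 3600 and 3511 in knockout and 2383 and 2955 in wild-type cells, without overlap (0.42, SE 0.211). Its 2 dimmer probe sets overlapped, at -0.10 and -0.08, and the average over the 3 was 0.081. Lpp, a zyxin relative, read 7467 and 10352 in knockout and 4956 and 9133 in wild-type cells (0.39, SE 0.355), and all of its 8 tested probe sets had a mean above 0, from 0.19 to 0.78. Higher at both numbers were 7 of those 8. Tns1, tensin 1, read 533 and 1028 in knockout and 318 and 889 in wild-type cells (0.47, SE 0.609). For Lpp and Tns1 the arrays numbered 2 were brighter in both genotypes and the groups overlapped. Pdlim5 was higher by 0.10 without overlap, and 6 of its 7 probe sets were higher at both numbers and 1 lower at both. Vcl, vinculin, differed by 0.03, Pxn, paxillin, by 0.03 and Zyx, zyxin, by -0.09 by their brightest probe sets. A dimmer probe set of Vcl (0.51) and one of Zyx (0.48) were higher without overlap, and averages over probe sets were 0.27 for Vcl, 0.10 for Pxn and 0.19 for Zyx.

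The 5 regulators all had a higher mean in the knockout, 4 of them at both numbers, and none passed the test. Of all tested genes 53.3% had a higher mean and 33.9% were higher at both numbers. The signs of Yap1, Mrtfa and Mrtfb turned in at least 1 fit that left out 1 array. Srf read 1672 and 1133 in knockout and 1104 and 912 in wild-type cells, without overlap (0.60 at number 1 and 0.31 at number 2; overall 0.45, SE 0.299). A second Srf probe set overlapped, at 915 and 730 in knockout and 551 and 802 in wild-type cells. Tead1, the DNA-binding partner of YAP, read 3342 and 4918 in knockout and 2144 and 3612 in wild-type cells (0.64 and 0.44; overall 0.54, SE 0.353), and its dimmer probe set gave 297 and 371 against 147 and 255, without overlap. Yap1 read 5188 and 3558 in knockout and 4460 and 3084 in wild-type cells (0.21, SE 0.301). Mrtfa read 1112 and 809 in knockout and 799 and 874 in wild-type cells, with opposite signs at the 2 numbers (0.47 and -0.11). Mrtfb read 2273 and 2940 in knockout and 2173 and 2528 in wild-type cells (0.14, SE 0.239). Among the members with a CArG box in their window, the log2 difference was 0.45 for Srf, 0.35 for Myl9, 0.03 for Vcl, 0.00 for Cnn2 and -0.10 for Actg1.

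**Figure D4:**
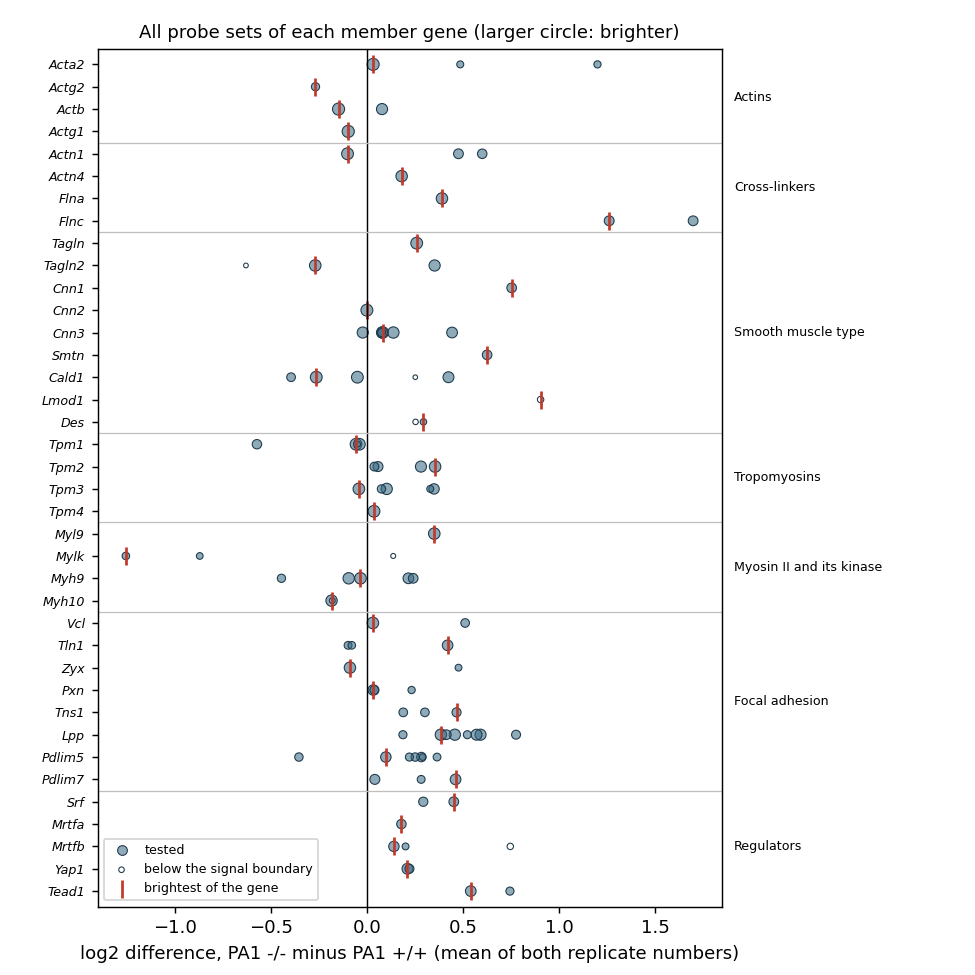
Mean log2 difference, knockout minus wild type, of all 101 member probe sets (circle area grows with mean log2 signal; open circles are below the signal boundary and not tested), with a red bar at the brightest probe set of each gene. Both bright probe sets of Flnc lie above 1, those of Lpp lie between 0.19 and 0.78, and those of Acta2 run from 0.03 to 1.20.

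The other probe sets of a gene repeat its measurement on the same arrays. Of the 93 tested member probe sets, 52 were higher at both numbers and 14 lower, with a median of 0.21, against 7453 higher and 6683 lower of all 22519 with a median of 0.02. Several probe sets were tested for 24 member genes: all had a positive mean difference for 12 genes, all negative for 2 (Mylk and Tpm1), and the signs were mixed for 10. The dimmer tested probe set of Mylk entered the test only through its wild-type signal. Probe sets whose names end in _s_at or _x_at can match transcripts of related genes, and such a probe set was the brightest of 8 members, Acta2, Actg1, Tagln2, Cnn3, Myh9, Pxn, Lpp and Srf, as it was the second of Flnc. Whether those readings include relatives was not tested.

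Differences between the arrays numbered 2 and 1 were larger than the genotype difference for 25 of the 37 tested members (67.6%), against 67.5% of all tested genes. Cnn1 was lower at number 2 by far, with log2 differences of -3.02 in knockout and -2.57 in wild-type cells, and Actg2 likewise (-1.01 and -1.02). Lmod1 was higher at number 2, by 1.52 in knockout and 3.09 in wild-type cells, as were Tns1 (0.94 and 1.46) and Myl9 (0.76 and 0.79). For Flnc the differences were -1.30 in knockout and -0.20 in wild-type cells. The genotype difference was larger in size at number 1 for 24 of the 37, among them Flnc, Smtn, Cnn1 and Srf. Across the 37 members, which are not independent replicates, the genotype differences at the 2 numbers, which share no array, correlated at 0.817, and at 0.658 without Flnc and Mylk, beside 0.437 over all tested genes.

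**Figure D5:**
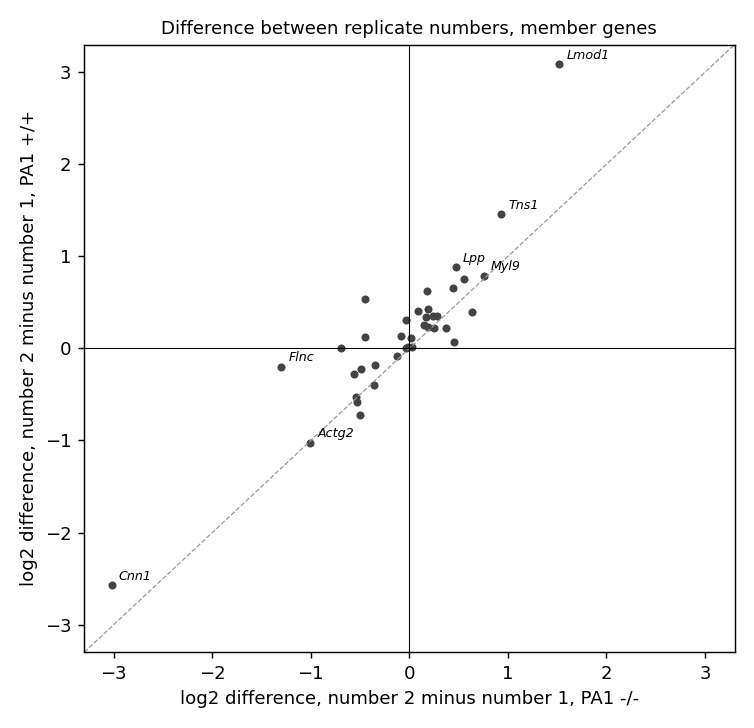
Log2 difference between the arrays numbered 2 and 1 in knockout (x axis) and wild-type cells (y axis) for the 38 member genes; the dashed line marks equal differences. Cnn1 lies at -3.02 and -2.57, Lmod1 at 1.52 and 3.09, and most other genes lie near the line within 1 of 0.

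Other genes of the pathway were read from 2 further lists, and 0 genes of each passed limma. For comparison, 33.9% of all tested genes were higher and 29.3% lower at both numbers. Of 28 tested genes for other adhesion and stress fibre proteins, 16 were higher at both numbers and 4 lower, with a median of 0.27. Lims2, which encodes the adhesion scaffold PINCH-2, read 215 and 456 in knockout and 109 and 173 in wild-type cells (1.13, SE 0.475). Parvb, beta-parvin, which belongs to the same complex, read 406 and 851 against 134 and 540 (1.09, SE 0.754), and the docking protein gene Bcar1 read 4136 and 3112 against 1767 and 2646 (0.73, SE 0.298). Lims2 and Bcar1 did not overlap between the groups, and Parvb did.

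Targets of SRF, MRTF, YAP and TEAD other than the members went both ways, with 12 of 23 higher at both numbers and 5 lower, and a median of 0.23. Ankrd1, a YAP target that encodes an ankyrin repeat protein, read 11679 and 1042 in knockout and 6260 and 370 in wild-type cells, higher in the knockout by 0.90 at number 1 and by 1.47 at number 2, with the arrays numbered 1 far above those numbered 2 in both genotypes. Fos and Egr2, immediate-early genes that SRF drives with its ternary complex partners, were lower at both numbers. Fos read 674 and 102 in knockout and 1480 and 462 in wild-type cells (-1.60, SE 1.03), and Egr2 read 61.9 and 36.1 in knockout and 186 and 139 in wild-type cells (-1.57, SE 0.383). The Egr2 values did not overlap, but both knockout values lay below the signal boundary, so Egr2 entered the test only through its wild-type signal.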

How the data were processed

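The deposited table held intensity values on a linear scale, 1 per probe set and array. The authors' tool was MAS5 per the submitters' processing notes, with settings not given in the sources used here. Trimmed of 2% of probe sets at each end, every array had a mean signal of 500.003, and such array-wide scaling hides any change shared by most genes. Of 45037 probe sets other than 64 controls, 34945 had 1 gene symbol, 932 several and 9160 none, and only single symbols named genes. The 9.96 added before taking log2 is the 20th percentile of all values. The upper 50% by mean, 22519 probe sets (93 of the 101 of members), entered limma 3.58.1 in R 4.3.3 (lmFit, eBayes with a trend, genotype only, 2 residual degrees of freedom, 2-sided), with Benjamini-Hochberg adjustment over all and a threshold of 0.05, after tests on simulated data. One pathway list of the design is not reported here.

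The members and lists were chosen with earlier results of these data known. By rule, array values were given for members differing by at least 0.5 with 1 sign at both numbers, the 6 brightest and the regulators; array values of other members were added after they had been seen. Each pathway list is named by its 3 largest differences of 1 sign at both numbers. Alternatives were quantile normalization, median centring, 2 other pseudocounts (1 and 64.9, the median signal), 2 other filters (none, upper 30%), eBayes without a trend, averaged probe sets, a replicate block, and each array left out in turn. Plots used Python 3.11.15 and matplotlib 3.10.9.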

Additional observations from a re-analysis of the deposited data

How the results depend on the processing

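With 2 arrays a group no member passed under any setting but 1, so stability of calls says little. With the replicate block 447 probe sets passed, against 0 without it, and 2 of the 37 member genes did, Flnc (1.26, SE 0.235, limma adjusted p = 0.0192) and Mylk (-1.25, SE 0.229, adjusted p = 0.0174), beside 266 of all 10714 genes (2.48%). The labels give a number but no shared litter, batch or day, although the number 2 minus number 1 differences of knockout and wild type correlated at 0.805 across tested probe sets. The member median, 0.10, was 0.15 after quantile normalization, 0.15 after median centring and 0.18 with averaged probe sets. Over all tested genes the median, 0.024, was 0.016, 0.074 and 0.029 under these settings. Median centring thus raised the median of all genes together with that of the members. Quantile normalization left 4 members lower at both numbers (8 as reported). The count of members at least 2-fold lower at both numbers, 1, was 0 with a pseudocount at the median signal and 0 in the upper 30%, where Mylk was not tested. Signs turned after quantile normalization for Actg1 (0.048), Tpm1 (0.041), Tpm3 (0.075) and Myh9 (0.048), after median centring for Tpm3 (0.0082) and Myh9 (0.017), and with averaged probe sets for Actn1 (0.33), Tagln2 (0.042), Tpm3 (0.16) and Zyx (0.19). Counts at both numbers cannot be formed without 1 array. Over all tested genes the median was 0.024 without PA1 +/+ replicate 1 and 0.029 without PA1 +/+ replicate 2. Without 1 array the member median ranged from 0.026 (without PA1 +/+ replicate 1) to 0.15, probe sets called stayed at 0, and 14 of 37 members, kept their sign, with lowest and highest values of Actn1 -0.12 to -0.083, Cald1 -0.44 to -0.087, Des 0.026 to 0.56, Flna 0.078 to 0.70, Flnc 0.61 to 1.91, Mylk -1.61 to -0.89, Pdlim5 0.085 to 0.11, Pdlim7 0.45 to 0.47, Smtn 0.28 to 0.97, Srf 0.17 to 0.73, Tagln 0.19 to 0.33, Tead1 0.17 to 0.92, Tln1 0.27 to 0.58 and Tpm2 0.29 to 0.42. Such fits hold unequal numbers in the genotypes and carry part of the difference between numbers. Signs turned in at least 1 of them for the other 23, with these lowest and highest values: Acta2 -0.14 to 0.20, Actb -0.35 to 0.057, Actg1 -0.21 to 0.018, Actg2 -0.78 to 0.24, Actn4 -0.15 to 0.51, Cnn1 -0.76 to 2.26, Cnn2 -0.21 to 0.21, Cnn3 -0.12 to 0.28, Lpp -0.055 to 0.83, Mrtfa -0.047 to 0.41, Mrtfb -0.044 to 0.33, Myh10 -0.43 to 0.063, Myh9 -0.26 to 0.19, Myl9 -0.044 to 0.75, Pxn -0.26 to 0.32, Tagln2 -0.59 to 0.049, Tns1 -0.26 to 1.19, Tpm1 -0.23 to 0.12, Tpm3 -0.17 to 0.088, Tpm4 -0.087 to 0.16, Vcl -0.027 to 0.090, Yap1 -0.060 to 0.48 and Zyx -0.26 to 0.089. The cause was not tested. All other settings left every sign and call of the tested members as reported.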
